A study of Mus musculus with 8 samples.

Results

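The core circadian clock genes described here are the 10 genes Arntl, Npas2, Clock, Cry1, Cry2, Per1, Per2, Per3, Nr1d1 and Nr1d2, taken from the 24547 genes of the deposited table by their gene names. Each of the 10 names matched a single gene. Their messenger RNA was measured by RNA sequencing in the livers of ICR mice, an outbred strain. The treated group (4 libraries) received a high-dose decoction of Psoraleae Fructus, the fruit of a legume used in traditional Chinese medicine, into the stomach for 30 days. The control group (4 libraries) received saline by the same route for as long. No genetic change, age, sex, dose in units of mass or hour of collection is given in the labels for either group. Whether all libraries were collected at the same hour is therefore not known here, and differences in hour, in the phase of the clock and in its overall level cannot be told apart. The animal behind each library is not stated, so the p-values cover the variation among these 8 libraries, which may be technical.

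The circadian clock of liver cells is a loop of transcription and repression that turns over daily. ARNTL (also called BMAL1) pairs with CLOCK, or with its relative NPAS2, and the pair activates the Per, Cry and Nr1d genes through E-boxes, after which PER and CRY proteins block the pair. The nuclear receptors REV-ERB alpha and beta, made from Nr1d1 and Nr1d2, repress Arntl and Npas2 at response elements (ROREs) that the activating ROR receptors also bind. Through this loop many liver genes of metabolism vary over the day, so that genes activated through E-boxes and genes activated through ROREs normally peak at different hours.

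Library totals ran from 15864399 to 20159132 counts. Pearson correlations of log2 CPM (counts scaled to a common depth) between libraries were 0.968 to 0.979 within the treated group and 0.925 to 0.962 within the control group, and no pair of libraries matched within sampling noise. Among the hepatocyte markers, 7 of 8 were matched in the table and summed to between 143731 and 165443 CPM in treated libraries and between 119731 and 175033 CPM in control libraries. Most of this sum was Alb, at 110121 to 128890 CPM in treated libraries. EdgeR called 0 of the 7 at an adjusted p under 0.05, while DESeq2 and limma-voom each called 1, Fgb (lower). Fgb was 3886 to 4303 CPM in treated and 5539 to 5827 CPM in control libraries (edgeR adjusted p = 0.0773). Control 4 stood apart from the other 3 control libraries for most clock genes, so each clock gene's result is also given without it. Because control 4 was picked by its clock gene values, leaving it out favours a difference in most of these genes. Clock gene p-values without control 4 are therefore a description and not a separate test. Across the genes tested, control 4 correlated at 0.947 to 0.958 with the treated libraries and at 0.925 to 0.954 with the other controls. By these correlations, its nearness to the treated libraries was not confined to the clock genes. Another measure, chi-square per degree of freedom between the counts of 2 libraries, put control 4 nearest to control 3 (103). It was 107 to 151 from the treated libraries, and 170 and 185 from controls 1 and 2. Over all 12861 genes tested, 1184 were called at an adjusted p under 0.05, against 2330 of 13091 without control 4.

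Promoter windows show which binding sequences sit near the start of genes that were lower or higher. The windows are RefSeq sequences on GRCm38.p6, each from 250 bases before a gene's start to 50 bases after it, and 9 of the 10 clock genes had at least 1, with 13 windows in all. Arntl had 2 windows, Clock 3 and Per1 2, for different start sites, and the other 6 genes 1 each. Per2, the only clock gene called higher with all 8 libraries, had no window. Shown are Arntl and Cry1, which were lower in treated livers, and Nr1d1 and Per3, which were higher there once control 4 was left out. The Arntl window shown is chr7:113207261-113207560 on the plus strand, chosen because it holds a match, that of Cry1 is chr10:85185005-85185304 on the minus strand, that of Nr1d1 is chr11:98775328-98775627 on the minus strand and that of Per3 is chr4:151044616-151044915 on the minus strand. Each is written 5′ to 3′ along the gene, and capitals mark the letters that match a searched motif on either strand.
Arntl: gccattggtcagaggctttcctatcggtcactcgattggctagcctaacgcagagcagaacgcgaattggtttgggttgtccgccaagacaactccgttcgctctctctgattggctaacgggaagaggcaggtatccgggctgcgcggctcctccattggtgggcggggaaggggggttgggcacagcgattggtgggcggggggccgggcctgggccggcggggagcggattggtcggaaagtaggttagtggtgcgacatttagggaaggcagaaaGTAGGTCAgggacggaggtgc
Cry1: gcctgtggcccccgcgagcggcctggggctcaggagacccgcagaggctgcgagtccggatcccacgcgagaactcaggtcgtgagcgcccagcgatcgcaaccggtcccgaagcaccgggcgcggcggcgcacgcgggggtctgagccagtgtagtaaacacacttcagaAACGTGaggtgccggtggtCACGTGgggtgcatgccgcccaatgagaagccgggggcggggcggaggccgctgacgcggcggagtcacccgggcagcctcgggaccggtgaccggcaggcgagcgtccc
Nr1d1: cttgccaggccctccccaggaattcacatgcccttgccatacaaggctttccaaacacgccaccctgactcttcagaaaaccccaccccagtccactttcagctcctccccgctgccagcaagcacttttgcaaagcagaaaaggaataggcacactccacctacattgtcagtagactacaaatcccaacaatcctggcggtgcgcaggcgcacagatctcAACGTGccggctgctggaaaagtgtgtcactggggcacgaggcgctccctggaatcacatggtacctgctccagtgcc
Per3: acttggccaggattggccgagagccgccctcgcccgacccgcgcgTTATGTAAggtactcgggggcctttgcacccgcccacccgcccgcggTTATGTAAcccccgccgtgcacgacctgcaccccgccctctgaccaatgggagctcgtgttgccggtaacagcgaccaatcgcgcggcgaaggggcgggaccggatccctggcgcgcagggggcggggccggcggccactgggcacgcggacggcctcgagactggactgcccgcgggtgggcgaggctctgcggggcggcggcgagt
The Arntl window shown holds the RORE with its flank, NTAGGTCA, beginning 30 bases after its start site, and it was the only clock gene window with that match. The other Arntl window, chr7:113207215-113207514, whose start site is the gene start of the annotation, held no match to any searched motif. Nor did the only window of Npas2, the clock gene with the largest fall, which is not shown. That window, chr1:39194022-39194321 on the plus strand, does not reach the gene start of the annotation, at 39193731. The sequence around the annotated Npas2 start was therefore not searched. NTAGGTCA contains the shorter RORE half-site AGGTCA, which was also found in a window of Clock, Nr1d2 and Per1 (1 window each). The longer form is in 2.59% and the shorter in 16.3% of the 32851 RefSeq windows of the same length, both strands searched. The E-box CACGTG, in 7.15% of all windows, was found for Cry1 and Per1, and the related CACGTT, in 4.68%, for Cry1, Cry2 and Nr1d1. The D-box TTANGTAA, bound by DBP, TEF, HLF and NFIL3, had 2 matches in the Per3 window and occurs in 2.32% of all windows. The cyclic-AMP response element TGACGTCA, in 1.79% of all windows, was in none of the 13 clock gene windows. A match is a run of letters and says nothing about binding in these livers.

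The activators Arntl and Npas2 and the repressor Cry1 were lower in treated livers, and the repressor Per2 was higher. All 10 clock genes passed the filter on low counts. With all 8 libraries, 3 were called lower, where 3.75% of all genes tested were called lower, and 1 was called higher, where 5.46% were. Without control 4, 4 were called lower (8.45% of all genes tested) and 5 higher (9.35%), leaving only Per1 uncalled. As that library was left out for its clock gene values, these counts are a description. The treated and control values of Arntl and Npas2 did not overlap in the lower direction (8.7% of all genes tested), and those of Per2 did not overlap in the higher direction (10.2%). The median size of the log2 fold change over the 10 genes was 0.95, against 0.30 over all genes tested, and the median signed change of all genes was −0.04.

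**Figure D1:**
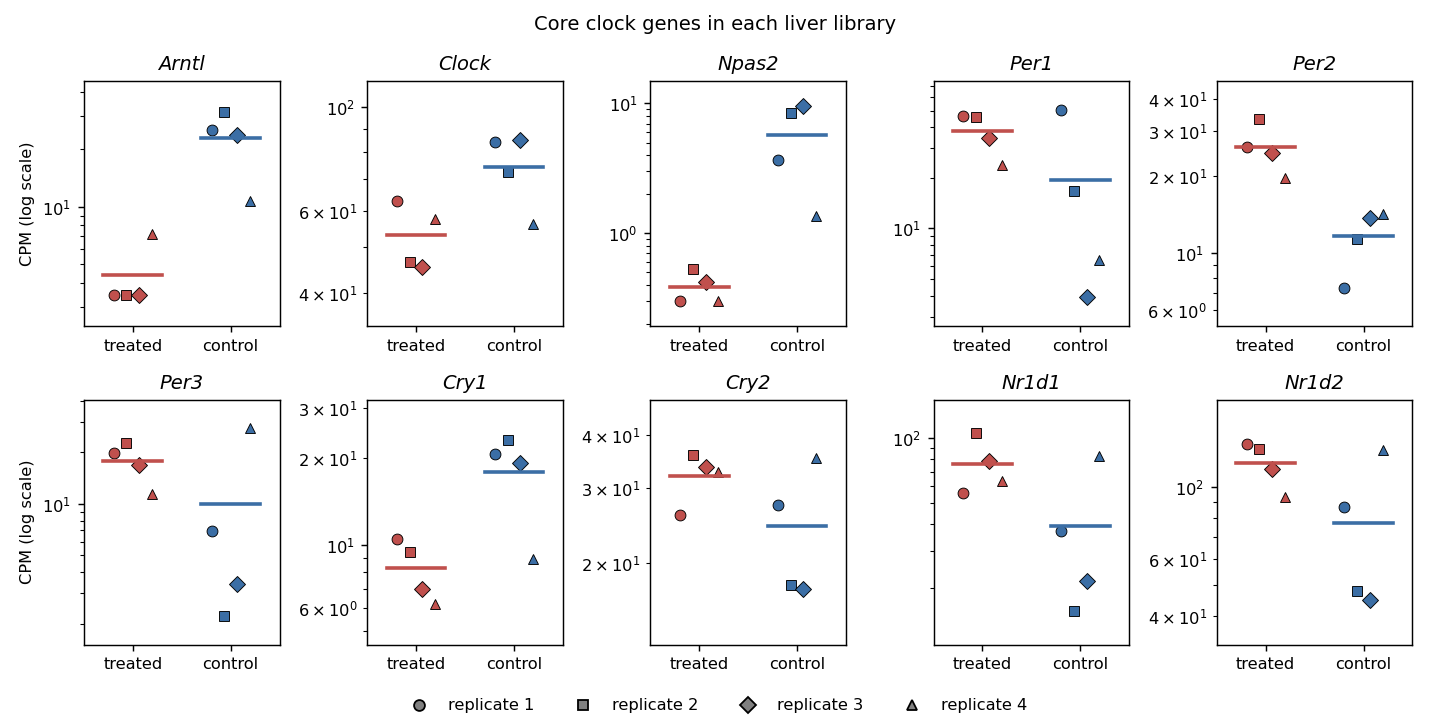
CPM on a log scale (vertical axis, 1 panel per gene) in the 4 treated (red, left) and 4 control (blue, right) liver libraries; marker shapes give the replicate number and horizontal bars the group means. Treated values lie below all control values for Arntl and Npas2 and above them for Per2, and control 4 (blue triangle) lies nearest to the treated values or among them for most other genes.

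Arntl, the obligate partner in the activating pair (chr7:113207465-113314126, plus strand), was 3.45, 3.46, 3.46 and 7.17 CPM in treated libraries 1 to 4 and 25.2, 31.3, 23.8 and 10.8 CPM in control libraries 1 to 4. The groups did not overlap, and the highest treated and the lowest control library were both number 4. The mean was 4.38 ± 1.86 CPM in treated livers and 22.8 ± 8.66 CPM in control livers (SD, n = 4 each). Arntl fell, with a log2 fold change of −2.38 (SE 0.37, 95% interval −3.21 to −1.54, adjusted p = 0.00993). It was called in each of the 8 fits that left out 1 library, and without control 4 the change was −2.61 (SE 0.27, adjusted p = 0.0021).

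Npas2, the relative of Clock that can take its place beside ARNTL (chr1:39193731-39363236, plus strand), had 6, 9, 7 and 5 counts in treated libraries and 61, 162, 153 and 26 counts in control libraries. Scaled for depth, this was 0.30, 0.528, 0.425 and 0.299 CPM in treated libraries and 3.67, 8.38, 9.62 and 1.36 CPM in control libraries. Every treated library held fewer than 10 counts, and the groups did not overlap. Npas2 fell by 3.87 on the log2 scale (SE 0.62, 95% interval −5.26 to −2.49, adjusted p = 0.00993), which was 14.6-fold lower and the largest change of the 10 genes. Without control 4 the change was −4.20 (SE 0.40, adjusted p = 0.00145), and Npas2 too was called whichever library was left out.

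Clock, the partner of ARNTL with histone acetyltransferase activity (chr5:76209868-76304792, minus strand), was 62.8, 46.6, 45.5 and 57.5 CPM in treated libraries and 84.0, 72.6, 84.9 and 56.2 CPM in control libraries. The groups overlapped through control 4 alone. The log2 fold change was −0.49 (SE 0.16, 95% interval −0.85 to −0.12) and did not pass (adjusted p = 0.088). Without control 4 it was −0.60 (SE 0.14, 95% interval −0.92 to −0.28) and passed (adjusted p = 0.0218). A correction for transcript length and GC content moved the change over all 8 libraries to −0.15 (adjusted p = 0.545).

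Within each library, FPKM (reads per length and depth) gives the balance of the activators. Npas2 stood at 1.37%, 3.25%, 2.68% and 1.49% of the FPKM of Clock in treated libraries and at 12.5%, 33.1%, 32.5% and 6.96% in control libraries. The ratio of Arntl to Clock FPKM was 0.10, 0.136, 0.139 and 0.228 in treated libraries and 0.548, 0.788, 0.512 and 0.349 in control libraries. Both ratios had every treated value below every control value. Npas2 and Arntl FPKM each separated the groups on their own. Clock varied less, at 3.10 to 4.54 FPKM in treated and 4.07 to 6.20 FPKM in control libraries. The separation of the ratios therefore adds no result to that of Npas2 and Arntl. These ratios were not tested.

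Per2, a repressor that carries CRY into the nucleus (chr1:91415982-91459324, minus strand), was 26.0, 33.6, 24.6 and 19.6 CPM in treated libraries and 7.27, 11.4, 13.7 and 14.2 CPM in control libraries. The groups did not overlap, and control 4 lay beside control 3. The mean was 26.0 ± 5.80 CPM in treated livers and 11.6 ± 3.15 CPM in control livers (SD, n = 4 each). Per2 rose by 1.16 on the log2 scale (SE 0.23, 95% interval 0.65 to 1.67, adjusted p = 0.0185). The call was lost without treated 2 (adjusted p = 0.0520) and without treated 3 (adjusted p = 0.0583), and without control 4 the change was 1.27 (adjusted p = 0.0112).

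Per1, a Period repressor that also responds directly to glucocorticoids (chr11:69095217-69109960, plus strand), was 46.6, 45.9, 34.3 and 23.8 CPM in treated libraries and 50.6, 16.8, 3.90 and 6.51 CPM in control libraries. Control 1 exceeded every treated library while the other 3 controls lay below all of them, a 13.0-fold span within the control group. The log2 fold change of 0.96 had a 95% interval of −0.83 to 2.74 (SE 0.76, adjusted p = 0.442). Without control 1 it was 2.05 (adjusted p = 0.0546), and without control 4 it was 0.67 (SE 0.79, adjusted p = 0.602). As control 1 held the highest Per1 value, leaving it out favours a rise, and that fit is a description.

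Genes that glucocorticoids induce were also high in control 1. Tat, a liver enzyme of tyrosine breakdown and the most abundant gene of the glucocorticoid list, was 1954, 1188, 1336 and 1356 CPM in treated libraries and 5732, 1056, 520 and 513 CPM in control libraries. Tsc22d3, which encodes the glucocorticoid-induced leucine zipper and was picked for mention after its values were seen, was 285, 260, 180 and 181 CPM in treated libraries and 220, 53.6, 55.8 and 43.0 CPM in control libraries. In control 1 both were thus well above the other 3 controls, as was Per1, and their part in the Per1 values was not tested. Klf9, a zinc finger factor and the next most abundant of the list, averaged 135 ± 9.22 CPM in treated and 127 ± 43.3 CPM in control livers (adjusted p = 0.792). Over the list, 7 of 8 genes were tested and edgeR called 0, with 1 gene (higher) at an unadjusted p under 0.05. DESeq2 and limma-voom each called 1, Tsc22d3 (higher), and without control 4 edgeR called 1, Zbtb16 (higher, log2 fold change 0.60, adjusted p = 0.0454).

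Per3, the third Period gene, which is not needed for the loop to run in mice (chr4:151003652-151044665, minus strand), was 19.9, 22.7, 17.0 and 11.4 CPM in treated libraries and 6.97, 2.22, 3.39 and 27.7 CPM in control libraries. Control 4 was the highest of all 8 libraries, and the other 3 controls lay below every treated library. With all 8 libraries the log2 fold change was 0.82 (SE 0.75, 95% interval −0.94 to 2.57, adjusted p = 0.508). Without control 4 it was 2.09 (SE 0.40, 95% interval 1.17 to 3.01, adjusted p = 0.0138).

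Cry1, the stronger of the Cryptochrome repressors (chr10:85131700-85185064, minus strand), was 10.4, 9.44, 6.98 and 6.21 CPM in treated libraries and 20.7, 23.1, 19.2 and 8.92 CPM in control libraries. The first 3 control libraries lay above every treated library, and control 4 lay within the treated range. Cry1 fell, with a log2 fold change of −1.12 (SE 0.29, 95% interval −1.77 to −0.46, adjusted p = 0.0437). Without control 4 the change was −1.34 (SE 0.19, adjusted p = 0.00451), but leaving out any other single library ended the call, with adjusted p up to 0.129. The correction for length and GC content also ended it (−1.12, adjusted p = 0.0574).

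Cry2, the other Cryptochrome (chr2:92403646-92434043, minus strand), was 25.9, 35.9, 33.6 and 32.7 CPM in treated libraries and 27.3, 17.8, 17.4 and 35.3 CPM in control libraries. The groups overlapped, with control 4 second highest of all 8. The log2 fold change was 0.39 (SE 0.23, 95% interval −0.12 to 0.90, adjusted p = 0.287), and without control 4 it was 0.62 (SE 0.19, 95% interval 0.21 to 1.04, adjusted p = 0.0465). The ratio of Cry2 to Cry1 FPKM was 1.31 to 2.78 in treated and 0.407 to 2.09 in control libraries.

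Nr1d1, the gene of the repressor REV-ERB alpha (chr11:98767932-98775333, minus strand), was 55.8, 106, 78.4 and 63.3 CPM in treated libraries and 37.1, 15.7, 21.7 and 82.6 CPM in control libraries. Control 4 lay inside the treated range and the other 3 controls below it. The log2 fold change was 0.95 (SE 0.51, 95% interval −0.23 to 2.13, adjusted p = 0.257) with all 8 libraries. Without control 4 it was 1.62 (SE 0.34, 95% interval 0.83 to 2.40, adjusted p = 0.0193).

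Nr1d1 shares exon sequence with Thra, a thyroid hormone receptor gene on the opposite strand, and reads from the shared stretch cannot be told apart without strand. Thra had 185, 162, 146 and 205 counts in treated libraries and 156, 141, 109 and 168 counts in control libraries. Its log2 fold change was 0.30 (SE 0.17, adjusted p = 0.27).

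Nr1d2, the gene of REV-ERB beta (chr14:18204054-18239127, minus strand), was 135, 131, 114 and 93.3 CPM in treated libraries and 86.8, 48.0, 44.9 and 129.7 CPM in control libraries. As for Nr1d1, control 4 lay inside the treated range and the other 3 controls below it. The log2 fold change was 0.61 (SE 0.33, 95% interval −0.13 to 1.36, adjusted p = 0.25), and without control 4 it was 0.98 (SE 0.25, 95% interval 0.43 to 1.54, adjusted p = 0.0282).

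**Figure D2:**
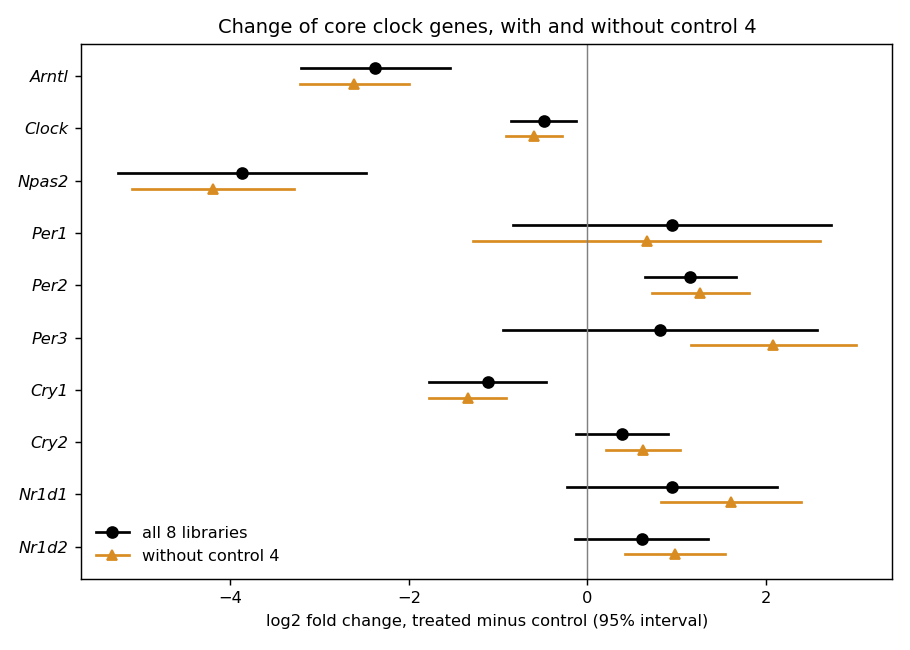
Log2 fold change, treated minus control, of each core clock gene (horizontal axis) with its 95% interval, from all 8 libraries (black circles) and without control 4 (orange triangles). Without control 4 the interval of Per3 moved above 0 (1.17 to 3.01), while that of Per1 included 0 either way.

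Library 4 of the control group was the control farthest toward the treated group for 9 of the 10 genes, and for Per1 this was control 1. For 7 genes control 4 was nearer to the mean of the treated libraries than to the mean of the other 3 controls, the exceptions being Arntl, Per1 and Per2. As control 4 was picked by these same values, both counts only describe that choice. Their shares over all genes tested were not computed, so the counts are not a trait of clock genes. With control 4 among them, control libraries varied more. The coefficient of variation was larger in the control group than in the treated group for 9 of 10 genes, and was furthest apart for Per3, at 27.2% in treated and 118% in control livers, and for Per1, at 28.8% in treated and 111% in control livers. Only Arntl went the other way, with 42.3% in treated and 38.0% in control livers. Without control 4 the control SD was smaller for every clock gene but Per1 and Per2. For Per3 it went from 11.9 to 2.47 CPM, and for Clock from 13.4 to 6.85 CPM. Correlations over the genes tested were also lower within the control group (0.925 to 0.962) than within the treated group (0.968 to 0.979). The share of all genes that varied more in controls was not computed. The labels give no hour of collection for control 4 or control 1, and the part of the hour in these values was not tested. All 10 genes kept the sign of their change in each of 23 other fits, 8 of which left out a single library.

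Set against Arntl, a RORE target and an E-box activator, Nr1d1 and Per2 stood higher in every treated library than in any control library, as untested ratios. Arntl and Per2 each separated the groups on their own, in opposite directions, so their ratio had to do so and adds no result. Nr1d1 on its own overlapped between the groups through control 4, and only its ratio to the lower Arntl did not. The ratio of Nr1d1 to Arntl FPKM was 39.5, 74.8, 55.4 and 21.6 in treated libraries and 3.59, 1.22, 2.23 and 18.8 in control libraries. The ratio of Per2 to Arntl FPKM was 9.70, 12.5, 9.15 and 3.51 in treated libraries and 0.370, 0.466, 0.739 and 1.69 in control libraries. In both ratios, treated 4 was the lowest treated library and control 4 the highest control library. Ratios within the repressor families overlapped between the groups: Per1 to Per2 was 1.26 to 1.86 in treated and 0.296 to 7.24 in control libraries, and Nr1d2 to Nr1d1 was 0.702 to 1.38 in treated and 0.894 to 1.74 in control libraries.

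Per length, the REV-ERB genes had the highest mean of the clock genes in both groups. In treated livers Nr1d1 averaged 24.4 ± 7.97 FPKM and Nr1d2 21.6 ± 4.08 FPKM (SD, n = 4), above every value of the next gene, Per1, at 6.62 ± 2.10 FPKM. Cry2, Per2, Clock, Cry1 and Per3 followed in that order, from 4.99 ± 0.751 FPKM for Cry2 to 1.83 ± 0.558 FPKM for Per3, each overlapping its neighbours. Arntl at 0.572 ± 0.236 FPKM and Npas2 at 0.0801 ± 0.0252 FPKM each lay below every value of the gene above it.

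The order was different in control livers, where every gene overlapped the next. Nr1d2 averaged 14.3 ± 7.03 FPKM and Nr1d1 12.7 ± 9.64 FPKM in control livers, followed by Cry1 at 5.50 ± 2.08 FPKM and Clock at 5.50 ± 0.962 FPKM. Arntl, at 3.10 ± 1.31 FPKM, lay between Per1 and Per2, and Per3 was last at 1.04 ± 1.23 FPKM.

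**Figure D3:**
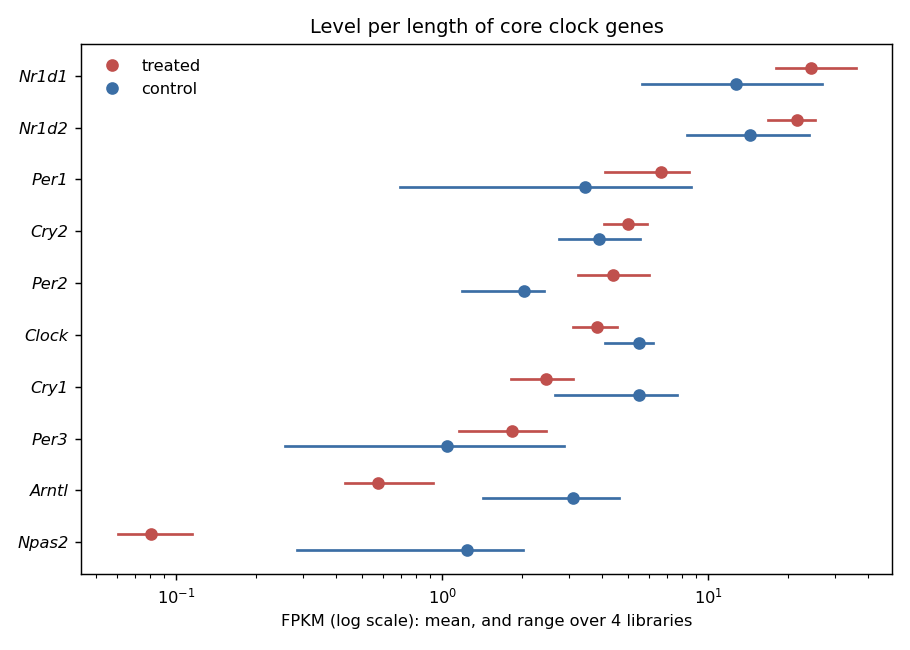
FPKM (horizontal axis, log scale) of each core clock gene in treated (red, upper) and control (blue, lower) livers; points are means and bars the range over 4 libraries. In treated livers Arntl (mean 0.572 FPKM) and Npas2 (mean 0.0801 FPKM) lie apart below the other 8 genes, and in control livers neighbouring ranges overlap.

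Around the core loop, a list of the ROR receptors, the D-box factors and other associated regulators had 12 of its 13 genes matched in the table and 11 tested. EdgeR called 0 of them with all 8 libraries, and 3 (all higher) had an unadjusted p under 0.05. DESeq2 called 2 higher and limma-voom 4 higher. The median log2 fold change of the list was 0.62, and without control 4 it was 0.80, with 3 genes called higher (Dbp, Tef and Hlf) and 0 lower.

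Tef and Bhlhe40 are named as the most abundant genes of this list. Tef, a D-box activator, was 186, 197, 186 and 147 CPM in treated libraries and 111, 41.1, 50.7 and 137 CPM in control libraries (log2 fold change 1.08, SE 0.36, adjusted p = 0.0965). All treated values were above all control values. Without control 4 the change was 1.41 (SE 0.33, adjusted p = 0.0266). Bhlhe40, a repressor that competes for E-boxes, averaged 110 ± 59.4 CPM in treated and 70.0 ± 30.5 CPM in control livers (log2 fold change 0.65, SE 0.43, adjusted p = 0.35), and without control 4 its change was 0.97 (SE 0.43, adjusted p = 0.161).

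Further genes of the list are named after their values were seen. Dbp, a D-box activator driven by E-boxes, was 50.6, 79.4, 71.5 and 38.0 CPM in treated libraries and 2.04, 0.155, 0.629 and 35.6 CPM in control libraries. Control 4 stood close under the lowest treated library while the other 3 controls were close to 0. The log2 fold change of Dbp was 2.63 (SE 1.35, adjusted p = 0.246), and without control 4 it was 6.01 (SE 0.70, adjusted p = 0.00541). Hlf, of the same family, had a change of 0.62 (SE 0.19, adjusted p = 0.0644), and without control 4 of 0.80 (SE 0.16, adjusted p = 0.0126). Rora, an activator at ROREs, was 107, 83.7, 89.8 and 74.2 CPM in treated libraries and 99.8, 81.5, 89.0 and 88.0 CPM in control libraries, with a change of −0.01 (SE 0.13, adjusted p = 0.958), and of −0.02 without control 4 (adjusted p = 0.942).

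**Figure D4:**
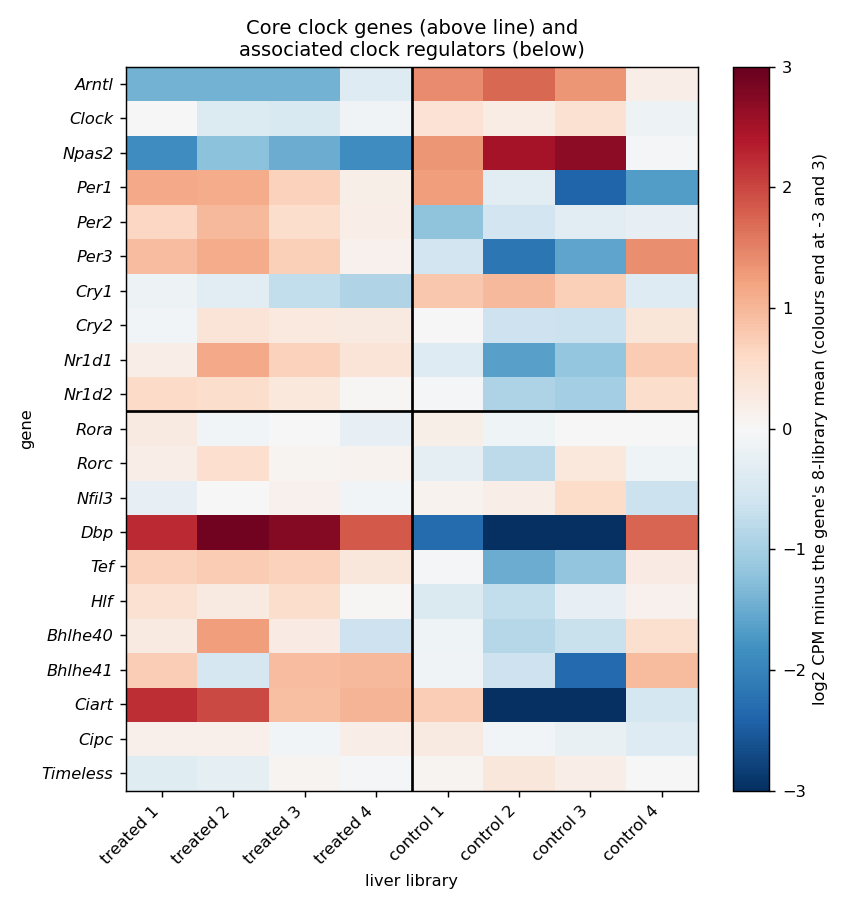
Log2 CPM of each gene minus its mean over the 8 libraries (colour, ending at −3 and 3) for the core clock genes (above the line) and associated regulators (below it), with treated libraries left of control libraries. Arntl and Npas2 are blue in treated and red in controls 1 to 3, Dbp (79.4 CPM in treated 2, 0.155 CPM in control 2) runs the other way, and control 4 is paler than or opposite in colour to the other controls for most genes.

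Genes that act on clock proteins or as their cofactors showed few differences. Of 21 kinases, phosphatases, ubiquitin ligases and other modifiers, edgeR called 0, with 1 lower and 2 higher at an unadjusted p under 0.05, and the median log2 fold change was 0.07. DESeq2 and limma-voom each called 2 of them higher, Ppp1cc and Usp2. Without control 4 edgeR again called 0, with 0 lower and 4 higher at an unadjusted p under 0.05. Usp2, a ubiquitin protease with clock proteins among its targets, was 99.0, 58.6, 54.7 and 32.4 CPM in treated libraries and 24.6, 5.33, 3.77 and 9.29 CPM in control libraries (log2 fold change 2.51, SE 0.64, adjusted p = 0.0528), and without control 4 the change was 2.45 (SE 0.79, adjusted p = 0.0846). The treated values of Usp2 lay above all control values.

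The most abundant modifiers were Ppp1ca, a catalytic subunit of protein phosphatase 1, and Ddb1, an adaptor of a ubiquitin ligase. Ppp1ca averaged 107 ± 6.08 CPM in treated and 94.0 ± 16.6 CPM in control livers (log2 fold change 0.18, SE 0.14, adjusted p = 0.405). Ddb1 averaged 198 ± 7.20 CPM in treated and 188 ± 16 CPM in control livers (log2 fold change 0.08, SE 0.11, adjusted p = 0.687).

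Of 12 chromatin and transcription cofactors, edgeR called 0, with 1 lower and 0 higher at an unadjusted p under 0.05. DESeq2 called 0 and limma-voom 1, Kdm5a (lower), a demethylase that acts with CLOCK and ARNTL. Kdm5a averaged 33.4 ± 1.28 CPM in treated and 40.9 ± 3.75 CPM in control livers (log2 fold change −0.29, SE 0.10, adjusted p = 0.101), and was called without control 4 (−0.35, adjusted p = 0.0369). The most abundant cofactors were Nono, an RNA-binding partner of PER proteins, and Trim28. Nono averaged 117 ± 11.7 CPM in treated and 114 ± 12.4 CPM in control livers, and Trim28 64.4 ± 7.89 CPM in treated and 52.1 ± 9.86 CPM in control livers (adjusted p = 0.9 for Nono and 0.225 for Trim28).

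Of the immediate early genes, 7 of 8 were tested and 1 was called, lower. This was Crem, a relative of CREB that acts at cyclic-AMP response elements. It was 17.1, 17.4, 17.8 and 14.8 CPM in treated libraries and 31.1, 36.1, 33.8 and 24.4 CPM in control libraries, without overlap. Crem fell, with a log2 fold change of −0.90 (SE 0.14, adjusted p = 0.00879). The median change of the list was 0.07, and without control 4 it was 0.91, with Crem again the only call. Treated 2 stood apart for this list, with a sum of 664 CPM against 69.8 to 109 CPM in the other treated libraries and 126 to 256 CPM in control libraries. Fos, named after its values were seen, was 1.10, 122, 2.91 and 0.776 CPM in treated libraries and 2.94, 2.69, 4.34 and 5.67 CPM in control libraries. The part of this library's immediate early genes in its clock gene values was not tested. Leaving out treated 2 ended the calls of Per2 and Cry1. So did leaving out treated 3, and for Cry1 any single library but control 4. Over all genes, calls fell from 1184 to 460 without treated 2.

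Markers of other liver cells moved with the groups in part, and whether fewer cells of a type or less RNA per cell underlay them cannot be told apart in whole tissue. Kupffer cell markers (6) summed to 258 to 520 CPM in treated and 390 to 957 CPM in control libraries, with 2 called lower, Adgre1 and Timd4, and 4 without control 4, where Clec4f and Vsig4 joined them. T and NK cell markers (5) summed to 3.11 to 5.22 CPM in treated and 7.45 to 21.2 CPM in control libraries, with 3 called lower of 3 tested, Cd3g, Nkg7 and Il2rb, and 4 of 4 without control 4, where Cd3e joined them. Endothelial markers (5) summed to 173 to 252 CPM in treated and 230 to 336 CPM in control libraries, with Pecam1 called lower with and without control 4.

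Control 4 had the lowest sum of the control libraries for these 3 lists, at 390, 7.45 and 230 CPM. Stellate cell markers (5) summed to 245 to 339 CPM in treated and 321 to 405 CPM in control libraries, and cholangiocyte markers (5) to 13.9 to 34.2 CPM in treated and 18.8 to 31.2 CPM in control libraries. EdgeR called 0 of these, with 2 stellate and 0 cholangiocyte markers at an unadjusted p under 0.05. DESeq2 called 1 stellate marker and limma-voom 2, and neither called a cholangiocyte marker. Of adipose markers, Plin1 was 0 in every library, and the list summed to at most 0.0587 CPM in treated and 0.105 CPM in control libraries. The pancreas list rested on Cela1 alone, at 9.30 to 17.7 CPM in treated and 5.74 to 57.3 CPM in control libraries, the highest in control 4. Its other matched genes, Cpa1 and Pnlip, were 0 in every control library and at most 0.0597 CPM in treated libraries. The part of these cell types in the clock gene differences was not tested.

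Genes whose pattern over the 8 libraries was most like that of a clock gene were found by the root mean square difference of centred log2 CPM among 12035 genes. Genes with predicted-gene symbols are not named, but the ranks of clock genes count them. For Arntl these were Pik3r5 (0.41), Il2rb (0.45), Neu3 (0.46), Nkg7 (0.47) and Glipr2 (0.49), with Npas2 at rank 209 (0.79) and Cry1 at rank 239 (0.80). Il2rb and Nkg7 are also on the T and NK cell list. For Per2 they were Snhg15 (0.19), Stbd1 (0.23), Sord (0.23), Lrrc29 (0.24) and Smim3 (0.25). The nearest clock genes to Per2 were far down, with Nr1d2 at rank 2346 (0.59) and Cry2 at rank 2463 (0.60). For Nr1d1 they were Fn3k (0.20), Dclk3 (0.29), Tef (0.31), Tmem14a (0.32) and Cd59b (0.34), with Nr1d2 at rank 22 (0.42) and Per3 at rank 27 (0.44).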

How the data were processed

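Liver RNA of 4 treated and 4 control libraries was sequenced after poly-A selection with a kit that does not mark strand, per the labels' protocols. The authors deposited 1 table of unnormalised read counts per gene, and deposited FPKM values beside them. HISAT2, HTSeq 0.13.5, DESeq2 1.32.0 and the build GRCm38 are named, without their roles, per the submitters' processing notes. Which annotation release and which strand setting were used is not given in the sources used here. Overlap matters because reads of overlapping genes on opposite strands cannot be told apart, which bears on Nr1d1 with Thra. Cry2 also overlaps D930015M05Rik, which had 24 counts in all 8 libraries, and Arntl overlaps Gm45355, not analysed here. Of the gene identifiers, 24540 matched the GENCODE annotation on GRCm38, which gave positions. No column of per-sample values was without a sample, and 1620 genes had no count.

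Counts were fitted in R 4.3.3 with edgeR 4.0.16: filterByExpr (minimum count 10, total 15) kept 12861 genes, TMM factors were applied, and the robust quasi-likelihood F test compared treated with control libraries. Genes were called where the p adjusted by Benjamini-Hochberg over all genes tested was under 0.05. CPM values are TMM-scaled, fold changes are log2, treated minus control, and standard errors come from the F statistic. Log2 CPM used a prior count of 2. Comparisons between genes use FPKM, which is per length.

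All 10 clock genes were named. In each associated list the called genes were named, or the 2 most abundant where 0 were called. For Arntl, Per2 and Nr1d1, the 5 genes of most similar pattern with a mean of at least 1 CPM were named, leaving out predicted-gene symbols. The clock genes and the lists were chosen with earlier results of these data known. The scripts were tested on simulated data. Alternatives were other scaling factors, filters and thresholds, DESeq2 1.42.0, limma 3.58.1 (voom, and log2 FPKM with a pseudocount of 1 or 0.1), a correction for length and GC content, a replicate block, and leaving out libraries.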

Additional observations from a re-analysis of the deposited data

Results flagged for a closer look

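Arntl in treated 4 stood apart from the other treated libraries, at 7.17 CPM against 3.45 to 3.46 CPM in the other 3. The gap to its neighbour was 0.997 of the range of the treated group, above the critical value of Dixon's test for 4 libraries. It was the only such library among 20 groups of values examined (10 clock genes in both groups), of which chance alone marks about 5%. Without treated 4, Arntl was still called lower.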

How the results depend on the processing

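The sign of the change of each of the 10 clock genes was the same in all 23 other fits, and the number called changed. Against 3 called lower and 1 higher with all 8 libraries, limma on log2(FPKM + 1) called 1 lower, with or without a filter on low values, and without the filter 0 higher. Limma-voom with quality weights called 4 higher, an adjusted p under 0.01 left 0 higher, and leaving out controls 2 and 4 together gave 3 higher. Leaving out 1 library at a time gave 2 to 4 called lower and 0 to 5 called higher, with 0 higher without treated 2 or treated 3 and 5 higher without control 4. Same-numbered libraries did not deviate together: their correlations ran from −0.012 to 0.177, 1 of 4 pairs exceeded 0.1, and 2 treated libraries correlated best with the control of their own number. The replicate block gave 2 lower (Npas2 and Cry1, with Arntl at an adjusted p of 0.0523) and 1 higher, and the block with the length and GC correction gave 0 higher. Over all genes and both directions, the main fit called 1184 of 12861, limma-voom 2088 of 12861 and DESeq2 2153. Limma on log2(FPKM + 1) called 854 of 11403, and 480 of 22927 without the filter. The length and GC correction gave 590 of 12861, the replicate block 944, and both together 486. Leaving out 1 library gave from 183 of 13118 (treated 3) to 2330 of 13091 (control 4). Leaving out controls 2 and 4 gave 1075 of 13329. Where a setting changed a count, the cause was not tested. Npas2 rested on 5 to 9 counts in each treated library, so the size of its fall is imprecise.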

Other observations

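Liver genes that follow feeding and fasting, which also set the time of the liver clock, were looked at beside it. Of 10 such genes, 9 were tested and edgeR called 0, with 3 (all lower) at an unadjusted p under 0.05; DESeq2 called those 3 lower (G6pc, Igfbp1 and Pdk4) and limma-voom 1 (G6pc). The most abundant, Pck1, an enzyme of glucose synthesis, averaged 2465 ± 104 CPM in treated and 2236 ± 1813 CPM in control livers, and Cpt1a, the entry step of fatty acids into mitochondria, 481 ± 157 CPM in treated and 571 ± 154 CPM in control livers. Others are named after their values were seen. G6pc, which releases glucose from its phosphate, was 92.6, 158, 148 and 153 CPM in treated libraries and 574, 498, 412 and 103 CPM in control libraries (log2 fold change −1.52, SE 0.46, adjusted p = 0.0741). Igfbp1, which binds insulin-like growth factors and is repressed by insulin, was 35.0, 53.4, 44.3 and 32.0 CPM in treated libraries and 632, 253, 133 and 9.97 CPM in control libraries. Pdk4, which holds back glucose oxidation, was 15.7, 6.75, 6.50 and 9.68 CPM in treated libraries and 37.6, 106, 86.7 and 6.56 CPM in control libraries. Srebf1, a driver of lipid synthesis, was 43.9, 98.8, 52.6 and 51.7 CPM in treated libraries and 22.1, 27.3, 34.0 and 143 CPM in control libraries. For each of these 4 genes control 4 lay on the treated side of the other 3 controls, and other genes of the list differed in this. Fasn, which builds fatty acids, was 61.3 to 123 CPM in treated libraries, and 492 CPM in control 4 against 72.2 to 136 CPM in the other controls. Pck1 was 2344 to 2564 CPM in treated libraries, and 548 CPM in control 4 against 1532 to 4783 CPM in the other controls. Without control 4 edgeR called G6pc (−1.84, adjusted p = 0.0021), Igfbp1 (−3.04, adjusted p = 0.0127) and Pdk4 (−2.98, adjusted p = 0.0093) lower and Srebf1 (1.15, adjusted p = 0.0344) higher. The part of these genes in the clock gene values was not tested.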
